A study of Homo sapiens with 6 samples.

Results

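The ERBB receptors, their ligands and their feedback inhibitors were followed as 9 listed genes in PC9, an established line of human lung adenocarcinoma cells whose growth depends on a mutant, active EGFR. The members were EGFR, ERBB2 and ERBB3 (receptors), HBEGF, AREG, EREG and TGFA (ligands), and ERRFI1 and LRIG1 (feedback inhibitors). They were taken by symbol from 26195 genes over 6 libraries, and 8 of the 9 had a row in at least 1 library's table. TGFA had none and was not analysed here. Messenger RNA of single cells was captured in droplets by Drop-seq, which counts unique molecular identifiers (UMIs) near the 3' ends of transcripts. The series examined drug-resistant cell populations, with 1 library for each of 6 conditions.

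Among the libraries, 4 received erlotinib, an inhibitor of the EGFR kinase, at 2 µM for 1 day, and each of these also carried a manipulation of the KDM5 histone demethylases. The CPI-455 library was not transduced and received the KDM5 inhibitor CPI-455 at 6.25 µM for 4 days. The KDM5A shRNA library carried a pLVTHM lentivirus with GFP, and erlotinib followed 4 days after transduction. The library labelled KDM5A and KDM5B shRNA carried a pair of such viruses, with erlotinib after 5 days. The KDM5A cDNA library carried a pLenti virus that drives tagged KDM5A from a CMV promoter, with erlotinib after 6 days. The controls without erlotinib were the scrambled library, with a scrambled shRNA in the same pLVTHM vector, and the untreated library, with neither virus nor drug. Growth medium held 5% fetal bovine serum, and transduced cells were moved to 10%. No library had erlotinib alone, and none had a KDM5 manipulation alone, so the effects of the drug and of KDM5 cannot be told apart.

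The ERBB family relays growth signals at the surface of epithelial cells. A ligand is made as a membrane-bound precursor, is shed by proteases such as ADAM17 and ADAM10, and binds EGFR, which then pairs with itself or with another member. ERBB2 has no known ligand and serves as a partner, and ERBB3 has a weak kinase but many docking sites for PI3 kinase. Signalling through RAS and MAPK induces ligand genes as well as feedback genes such as ERRFI1 (also called MIG6), whose product binds the EGFR kinase domain and blocks it. LRIG1 is a membrane protein that promotes receptor breakdown. The relation between receptor, ligand and feedback transcripts under an EGFR inhibitor is the question these members address here.

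Cells were barcodes with at least 500 UMIs and at most 20% mitochondrial (MT-) UMIs: 202 in the CPI-455 library, 374 with KDM5A shRNA, 152 in the library labelled KDM5A and KDM5B shRNA, 131 with KDM5A cDNA, 263 scrambled and 1166 untreated. Of 2288 kept barcodes, 1 occurred in more than 1 library. Summed depth ran between 590091 and 1596385 UMIs in the erlotinib libraries, against 1294422 scrambled and 3956647 untreated. MT- transcripts took between 7.04% and 9.18% of UMIs with erlotinib, against 5.03% scrambled and 3.98% untreated. Processed pseudogenes took between 2.38% and 3.25% of UMIs in 3 of the erlotinib libraries, and 1.25% with KDM5A shRNA, against 1.31% scrambled and 0.956% untreated. Lung epithelial markers summed to between 7877 and 11787 CPM (UMI counts scaled to a common library total) in the 6 libraries, with keratins and EPCAM present, SFTPB at 0 throughout and NKX2-1 at 0 in 5. Fibroblast, blood and endothelial marker lists summed to at most 12.4 CPM.

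The labels were checked on KDM5A and KDM5B. KDM5A stood at 56.4 CPM with KDM5A shRNA, 41.3 CPM in the library labelled KDM5A and KDM5B shRNA and 164 CPM with KDM5A cDNA, against 81.9 CPM scrambled, and at 120.2 CPM with CPI-455 against 121 CPM untreated. A single cell held 31 of the 97 KDM5A UMIs with KDM5A cDNA, and without it, left out after the data were seen, the level there was 113 CPM (95% interval 87.5 to 144). KDM5B stood at 102 CPM with CPI-455, 151 CPM with KDM5A shRNA, 138 CPM in the library labelled KDM5A and KDM5B shRNA and 94.9 CPM with KDM5A cDNA, against 46.4 CPM scrambled and 60.4 CPM untreated. It was thus above both controls in all 4 erlotinib libraries and not lower in the one labelled with its shRNA, so directions given for that library go with a KDM5B level above the controls.

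HBEGF and EREG carried the largest differences among the members, and the promoters of the ligand genes HBEGF, EREG and AREG are printed here. Each had its highest level in the untreated library, as did ERRFI1. For AREG this was 7 UMIs, against 2 UMIs scrambled. The sequences are RefSeq promoters of build GRCh38.p14, from 250 bases before the start site to 50 bases from it on, written in the direction of the gene. Entries were held for 8 of the 9 members. HBEGF is at chr5:140346554-140346853 on the minus strand, EREG at chr4:74364895-74365194 on the plus strand and AREG at chr4:74444886-74445185 on the plus strand. Capitals mark matches to the motifs described next.
HBEGF: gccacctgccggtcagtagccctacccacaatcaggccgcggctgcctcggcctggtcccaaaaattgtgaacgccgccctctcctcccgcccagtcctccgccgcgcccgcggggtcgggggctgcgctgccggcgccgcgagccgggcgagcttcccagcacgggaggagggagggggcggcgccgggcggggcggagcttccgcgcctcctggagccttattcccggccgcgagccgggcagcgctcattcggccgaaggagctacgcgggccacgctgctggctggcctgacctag
EREG: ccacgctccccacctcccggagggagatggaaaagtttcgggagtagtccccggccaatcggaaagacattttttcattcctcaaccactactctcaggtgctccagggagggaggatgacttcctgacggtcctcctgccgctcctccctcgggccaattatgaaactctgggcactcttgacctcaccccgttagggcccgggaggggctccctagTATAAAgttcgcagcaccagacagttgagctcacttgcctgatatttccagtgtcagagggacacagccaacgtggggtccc
AREG: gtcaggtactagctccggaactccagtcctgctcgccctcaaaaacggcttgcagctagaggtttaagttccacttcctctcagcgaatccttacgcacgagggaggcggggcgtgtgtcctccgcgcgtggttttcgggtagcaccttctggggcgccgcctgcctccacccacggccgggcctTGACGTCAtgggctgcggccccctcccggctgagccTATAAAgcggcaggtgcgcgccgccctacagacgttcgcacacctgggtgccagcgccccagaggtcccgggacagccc

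The start sites of EREG and AREG lie 80.0 kb apart on chromosome 4, within a cluster of EGFR ligand genes. Each promoter was searched on both strands for 6 motifs that do not overlap in the matches found: TGANTCA (AP-1), TGACGTCA (the cAMP response element, CRE), CCGGAAGT (ETS), GTAAACA (FOXO), CACGTG (E-box) and TATAAA (the TATA box). EREG and AREG each held TATAAA, 32 and 29 bases before the start site, and TATAAA occurs in 11.5% of the 35116 promoters in the table. AREG also held TGACGTCA, 65 bases before the start site, a motif found in 1.85% of promoters. HBEGF held none of the 6 and had 75.0% G and C bases, against 57.7% in EREG, 66.3% in AREG and a median of 58.7% over all promoters. Of the other motifs, TGANTCA occurs in 7.71% of promoters, CCGGAAGT in 4.14%, GTAAACA in 3.42% and CACGTG in 7.26%. Among promoters not printed, ERBB2 held TGANTCA and CCGGAAGT, a promoter of EGFR held TGANTCA and TATAAA, and a promoter of LRIG1 held TGANTCA. These matches describe letters in the window only.

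Erlotinib was tested over all genes on UMIs summed per library, 4 libraries against 2, with edgeR's quasi-likelihood test and Benjamini-Hochberg adjustment. The 4 libraries are not replicates of a condition, and each p measures only the spread between these libraries. Of 10445 genes tested, 10.0% were called higher and 13.5% lower at an adjusted p under 0.05, and the median log2 fold of all tested genes was 0.01. All 4 erlotinib libraries lay above both others for 18.6% of tested genes and below both for 26.7%. Among members, 5 passed the low-count filter (EGFR, ERBB2, ERBB3, HBEGF and ERRFI1). Of these, 1 was called lower, HBEGF, and 0 were called higher by edgeR, although ERBB2 and ERBB3 had positive folds at an unadjusted p of 0.0239 and 0.0358. DESeq2 and limma-voom also called 0 members higher. HBEGF passed the filter through the drug-free libraries alone. In summed cells, fewer cells carrying a transcript and less transcript per cell cannot be told apart.

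EGFR, the target of erlotinib, ranged little. It stood at 312 CPM with CPI-455, 335 CPM with KDM5A shRNA, 273 CPM in the library labelled KDM5A and KDM5B shRNA and 283 CPM with KDM5A cDNA, against 350.0 CPM scrambled and 338 CPM untreated. All 4 erlotinib libraries lay below both others in CPM, by a margin that was small beside their own spread. This order depended on the scaling. With MT- UMIs left out, KDM5A shRNA stood at 0.978 of scrambled and scrambled at 1.05 of untreated, so KDM5A shRNA was no longer below untreated. The log2 fold was -0.15 (SE 0.19), which did not pass edgeR's test (adjusted p = 0.594). In the order of levels, no neighbouring pair of the 6 libraries differed beyond the 95% interval of its ratio, which covers counting error only. Some libraries further apart did. Against scrambled, EGFR stood at 0.780 (0.656 to 0.923) in the library labelled KDM5A and KDM5B shRNA and 0.809 (0.673 to 0.968) with KDM5A cDNA. The first of these stood at 0.814 (0.688 to 0.960) of KDM5A shRNA, and the other pairs compared below had intervals that included 1. For KDM5A cDNA against scrambled, the interval also included 1 with MT- UMIs left out (0.839, 0.698 to 1.003). It did so without barcodes ending in N as well (0.816, 0.654 to 1.01). Summed UMIs gave a ratio of 0.908 (0.843 to 0.978, counting error only) of erlotinib to none. Its totals include MT- UMIs, which took a larger share with erlotinib, and a summed ratio without them is not given here. It therefore does not show a drop of EGFR. An antisense gene, EGFR-AS1, had between 0 and 3 UMIs in each library. Whether reads were counted by strand is not given in the sources used here.

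ERBB2, the receptor without a ligand, stood at 40.1 CPM with CPI-455, 28.8 CPM with KDM5A shRNA, 33.1 CPM in the library labelled KDM5A and KDM5B shRNA and 27.1 CPM with KDM5A cDNA. The scrambled library held 12.4 CPM and the untreated library 23.0 CPM. All 4 erlotinib libraries lay above both controls, and the log2 fold was 0.86 (SE 0.33), short of the threshold in edgeR (adjusted p = 0.0794). These levels rest on between 16 and 46 UMIs in each erlotinib library, against 16 UMIs scrambled and 91 untreated. In the order of levels, only untreated over scrambled exceeded counting error, with a ratio of 1.86 (1.09 to 3.39).

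ERBB3, the receptor with many PI3 kinase docking sites, ranged most among the receptors. Its level was 97.3 CPM with CPI-455, 88.3 CPM with KDM5A shRNA, 124 CPM in the library labelled KDM5A and KDM5B shRNA and 61.0 CPM with KDM5A cDNA, against 29.4 CPM scrambled and 73.0 CPM untreated. The groups overlapped, because the untreated library lay above the KDM5A cDNA library. The log2 fold was 0.87 (SE 0.36), which did not pass edgeR's test (adjusted p = 0.105). The outcome turned on the controls, which differed from each other. Without the untreated library, ERBB3 passed with a log2 fold of 1.64 (adjusted p = 0.0214), and without the scrambled library the fold was 0.40 (adjusted p = 0.472). In every setting and with each library left out, the fold was positive. In the order of levels, only the lowest step, KDM5A cDNA over scrambled, exceeded counting error.

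**Figure D1:**
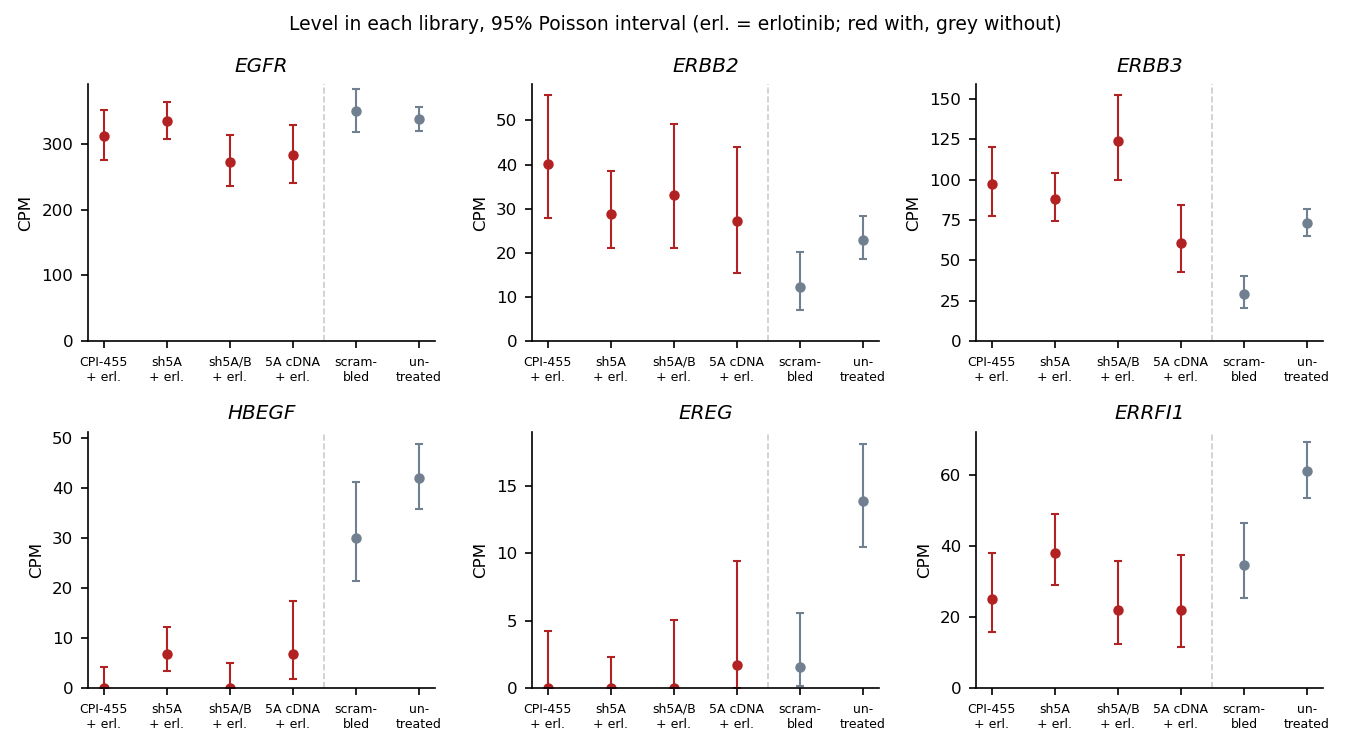
Level of 6 members in each of the 6 libraries, in CPM, with exact 95% Poisson intervals for counting error (red points with erlotinib, grey points without; the third point is the library labelled KDM5A and KDM5B shRNA). EGFR sits between 273 and 350.0 CPM in all libraries, HBEGF is at or under 6.89 CPM in every erlotinib library against 30.1 and 42.0 CPM in the controls, and EREG stands out in the untreated library at 13.9 CPM.

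HBEGF encodes heparin-binding EGF-like growth factor, a ligand of EGFR and of ERBB4. It was at 0 UMIs with CPI-455, 6.89 CPM (11 UMIs) with KDM5A shRNA, 0 UMIs in the library labelled KDM5A and KDM5B shRNA and 6.78 CPM (4 UMIs) with KDM5A cDNA, against 30.1 CPM (39 UMIs) scrambled and 42.0 CPM (166 UMIs) untreated. Every erlotinib library was below both controls, and in the order of levels only the step between the groups exceeded counting error (scrambled over KDM5A shRNA, 4.37, 2.20 to 9.47). A count of 0 allowed up to 3.43 CPM with CPI-455 and up to 4.13 CPM in the library labelled KDM5A and KDM5B shRNA. The log2 fold was -3.20 (SE 0.69), past edgeR's threshold (adjusted p = 0.0107). Since HBEGF entered this test only through its level in the drug-free libraries, the call is a description of those counts. Without the filter edgeR gave -3.29 (adjusted p = 4.49e-10), which does not remove this limit. That fit takes in genes with almost no counts, and its folds of the other tested members were lower too (EGFR -0.27, ERBB2 0.72, ERBB3 0.72, ERRFI1 -0.88). Its adjusted p therefore cannot be set beside the filtered one. Summed over libraries, 15 UMIs with erlotinib against 205 without made HBEGF 9.85-fold lower (95% interval 5.84 to 17.9, counting error only).

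The HBEGF call depended on the tool and on the controls. DESeq2 gave a log2 fold of -3.30 that did not pass (adjusted p = 0.132), and limma-voom gave -3.81 (adjusted p = 0.0122). Without the untreated library the fold was -2.99 (adjusted p = 0.0636), and with the 4 transduced libraries alone it was -2.59 (adjusted p = 0.0688). With MT- UMIs left out it was -3.20 (adjusted p = 0.00978). The untreated library held 1 cell with 17 HBEGF UMIs among 67932 UMIs in all; without that cell, left out after the data were seen, the fold was -3.12 (adjusted p = 0.0115). Counting all barcodes added 1 UMI to the library labelled KDM5A and KDM5B shRNA and 0 to the CPI-455 library.

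EREG encodes epiregulin, a ligand of EGFR and ERBB4. It had 0 UMIs in the CPI-455 library, in the KDM5A shRNA library and in the library labelled KDM5A and KDM5B shRNA, and 1 UMI with KDM5A cDNA, against 2 UMIs scrambled and 55 UMIs untreated. The untreated library stood alone at 13.9 CPM (95% interval 10.5 to 18.1). The groups overlapped, since the single UMI with KDM5A cDNA was 1.69 CPM and the scrambled level 1.55 CPM. Summed UMIs were 1 with erlotinib against 57 without, a level 41.1-fold lower (7.09 to 1651, counting error only), and 55 of those 57 came from the untreated library. EREG did not pass the low-count filter and was not tested in the main comparison.

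AREG encodes amphiregulin, another EGFR ligand. Its UMIs were 0 in each of the 4 erlotinib libraries, against 2 scrambled and 7 untreated. Set against 3 counts over the group, the erlotinib libraries were at least 2.16-fold lower in summed UMIs. The exact 95% interval, which also takes in the counting error of the 9 UMIs, allows a ratio of up to 0.703. The counts are too few for a firmer statement. AREG also has a near-identical copy in the genome build the authors used, so reads could be split or lost and its counts are uncertain.

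ERRFI1, the inhibitor of the EGFR kinase, stood at 25.2 CPM with CPI-455, 38.2 CPM with KDM5A shRNA, 22.0 CPM in the library labelled KDM5A and KDM5B shRNA and 22.0 CPM with KDM5A cDNA, against 34.8 CPM scrambled and 61.2 CPM untreated. The KDM5A shRNA library lay above the scrambled library, so the groups overlapped. The log2 fold was -0.76 (SE 0.32), which did not pass edgeR's test (adjusted p = 0.106), and it passed without the KDM5A shRNA library (-1.03, adjusted p = 0.0370). The 3 erlotinib libraries at or under 25.2 CPM were also those with processed pseudogene shares between 2.38% and 3.25%, whose part in the result was not tested. In the order of levels, only the step between untreated and KDM5A shRNA exceeded counting error, with a ratio of 1.60 (1.20 to 2.16) of untreated over KDM5A shRNA. LRIG1 had a single UMI in the CPI-455 library and another in the KDM5A shRNA library, against 0 in the other 4 libraries. It was at or under the limit that a count of 0 allows everywhere, so no fold is given.

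The receptor transcripts were also summed and taken as shares of their sum. EGFR, ERBB2 and ERBB3 together stood at 450 CPM with CPI-455, 452 CPM with KDM5A shRNA, 430 CPM in the library labelled KDM5A and KDM5B shRNA and 371 CPM with KDM5A cDNA, against 392 CPM scrambled and 434 CPM untreated. The mean was 426 ± 37.8 CPM (SD, n = 4) with erlotinib and 413 ± 30.1 CPM (SD, n = 2) without. The exact two-sided permutation p was 0.933, in a design whose smallest possible p is 0.133, so it says nothing about stability. EGFR made up 69.5%, 74.1%, 63.5% and 76.3% of receptor UMIs with CPI-455, with KDM5A shRNA, in the library labelled KDM5A and KDM5B shRNA and in cells with KDM5A cDNA, against 89.3% scrambled and 77.9% untreated. The erlotinib libraries all lay below both controls, although the 95% intervals of KDM5A shRNA (70.7 to 77.3) and KDM5A cDNA (70.1 to 81.7) both overlapped that of untreated cells (75.8 to 79.8). ERBB2 made up between 6.37% and 8.91% of receptor UMIs with erlotinib, against 3.16% scrambled and 5.30% untreated. ERBB3 took between 16.4% and 28.8% with erlotinib, against 7.50% scrambled and 16.8% untreated. For the EGFR and ERBB2 shares the exact permutation test over 15 splits gave p = 0.133, the smallest that 4 libraries against 2 allow, and for ERBB3 it gave p = 0.267. The 3 shares sum to a whole and are not independent. UMIs count captured transcript ends, so these are shares of captured ends and not of receptor molecules.

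Ligand UMIs were also set against receptor UMIs of the same library. HBEGF, AREG and EREG together gave 0, 15.2, 0 and 22.8 UMIs per 1000 receptor UMIs with CPI-455, with KDM5A shRNA, in the library labelled KDM5A and KDM5B shRNA and in cells with KDM5A cDNA, against 84.8 scrambled and 133 untreated. No erlotinib library reached the lower control. The mean was 9.52 ± 11.4 (SD, n = 4) with erlotinib and 109 ± 33.9 (SD, n = 2) without, and the exact permutation p was again the smallest possible, 0.133.

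**Figure D2:**
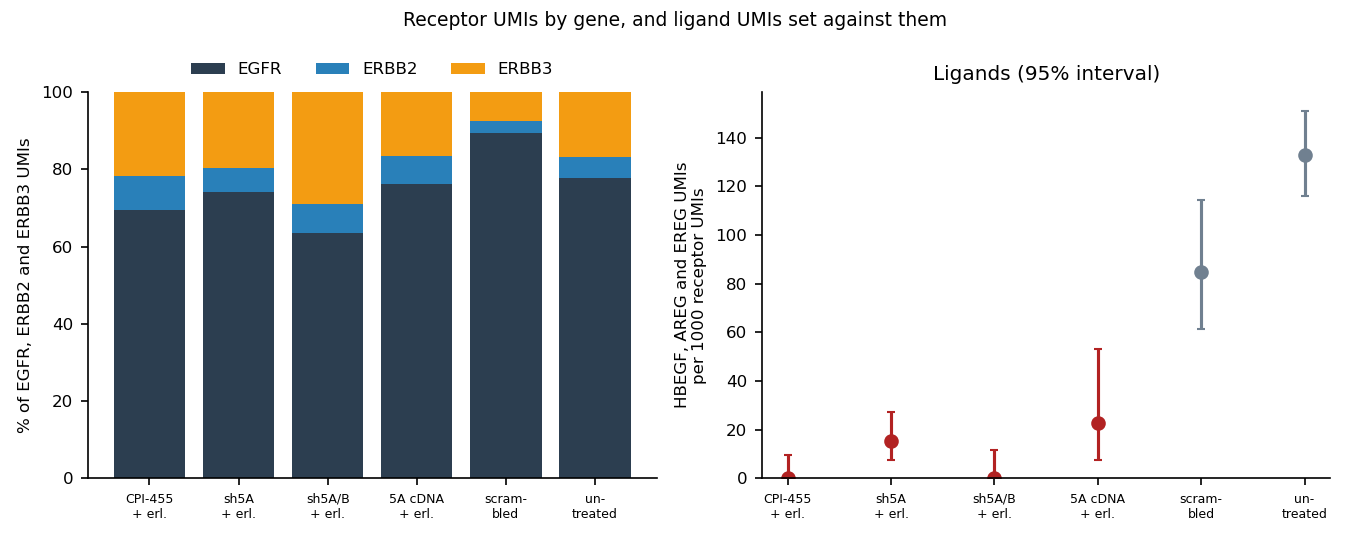
Left, share of EGFR, ERBB2 and ERBB3 among their summed UMIs in each library, in percent; right, HBEGF, AREG and EREG UMIs per 1000 receptor UMIs with exact 95% intervals for counting error (red with erlotinib, grey without). EGFR's share runs between 63.5% and 76.3% with erlotinib against 77.9% and 89.3% without, and the ligand ratio is at most 22.8 with erlotinib against 84.8 and 133 without.

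Each library was next set against its nearest control. With 1 library a condition there is no replicate check, so ratios carry exact 95% intervals for counting error only. A gene counted as past the fold when its ratio was at least 2-fold with an interval that left out 1, among genes whose UMIs in both libraries came to 10 or more. With CPI-455 against untreated, 26.8% of genes were past the fold, and among 6 members 3 were, all lower. HBEGF was at least 12.2-fold lower and EREG at least 4.05-fold lower, both taken at 3 counts for the CPI-455 library. With the counting error of both libraries, the 95% intervals allow ratios of up to 0.102 for HBEGF and 0.314 for EREG. ERRFI1 stood at 0.412 of its untreated level (0.253 to 0.638), and at 0.529 (0.307 to 0.857), short of 2-fold, without barcodes ending in N. ERBB2 and ERBB3 stood at 1.74 (1.14 to 2.60) and 1.33 (1.03 to 1.70) of the untreated level, short of 2-fold. Without barcodes ending in N, both intervals included 1, at 1.59 (0.943 to 2.57) and 1.31 (0.972 to 1.74). With cells thinned to 1000 UMIs ERBB3 stood at 0.889 (0.422 to 1.70). With at most 10% MT- UMIs ERBB2 stood at 2.05 (1.29 to 3.16) and ERBB3 at 1.34 (0.989 to 1.78).

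The 3 transduced erlotinib libraries share the scrambled library as their control, and the same 3 of 5 members were past the fold in each. The background was 27.3% of genes with KDM5A shRNA, 29.2% in the library labelled KDM5A and KDM5B shRNA and 27.1% in the KDM5A cDNA library. ERBB2 was higher, at 2.33 (1.30 to 4.41), 2.68 (1.36 to 5.39) and 2.19 (1.03 to 4.69) times the scrambled level in that order of libraries. ERBB3 was also higher, at 3.01 (2.09 to 4.43), 4.22 (2.86 to 6.35) and 2.08 (1.28 to 3.37) times the scrambled level. HBEGF was lower, at 0.229 (0.106 to 0.455) with KDM5A shRNA, at 0 UMIs in the library labelled KDM5A and KDM5B shRNA (at least 7.29-fold lower at 3 counts, with an interval up to a ratio of 0.177), and at 0.225 (0.0584 to 0.624) with KDM5A cDNA. ERRFI1 was past the fold in none of these pairs, with ratios of 1.10, 0.634 and 0.634 and intervals that all included 1. Without barcodes ending in N, ERBB2 was no longer past the fold in the library labelled KDM5A and KDM5B shRNA (2.19, 0.955 to 5.11), nor were ERBB2 (2.10, 0.813 to 5.31) and HBEGF (0.374, 0.0950 to 1.07) with KDM5A cDNA. A low level in the shared scrambled library enters all 3 ratios of ERBB2 and ERBB3.

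The scrambled library itself differed from untreated cells in some members. Of 13588 genes, 11.7% were past the fold, and of 6 members 2 were, both lower. ERBB3 stood at 0.402 of the untreated level (0.279 to 0.565) and EREG at 0.111 (0.0131 to 0.421). ERBB2 at 0.537 (0.295 to 0.921) and ERRFI1 at 0.568 (0.404 to 0.784) were lower by less than 2-fold. EGFR at 1.03 (0.928 to 1.15) and HBEGF at 0.718 (0.493 to 1.02) had intervals that included 1. The scrambled cells differed from untreated cells in virus, serum and depth, and these cannot be told apart.

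Erlotinib libraries with different KDM5 manipulations were also set against each other. KDM5A shRNA against KDM5A cDNA had 0 of 5 members past the fold, against 14.8% of all genes there, and CPI-455 against KDM5A cDNA had 0 of 4, against 7.27%. HBEGF, with 11 UMIs in the KDM5A shRNA library, was past the fold in the comparisons of CPI-455 (15.5% of all genes) and of the library labelled KDM5A and KDM5B shRNA (7.40%) with it. Those results rest on 0 UMIs against 11, with intervals up to ratios of 0.728 and 0.876, and count as past the fold only because the ratio itself is 0. ERBB3 in the library labelled KDM5A and KDM5B shRNA was 2.03 times (1.37 to 3.08) its level with KDM5A cDNA, where 8.16% of genes were past the fold. ERBB3 with CPI-455 was 1.59 times (1.07 to 2.42) that level and with KDM5A shRNA 1.45 times (0.998 to 2.15). EGFR ratios among erlotinib libraries lay between 0.814 and 1.18. Only the lowest, of the library labelled KDM5A and KDM5B shRNA to KDM5A shRNA, had an interval that left out 1 (0.688 to 0.960).

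**Figure D3:**
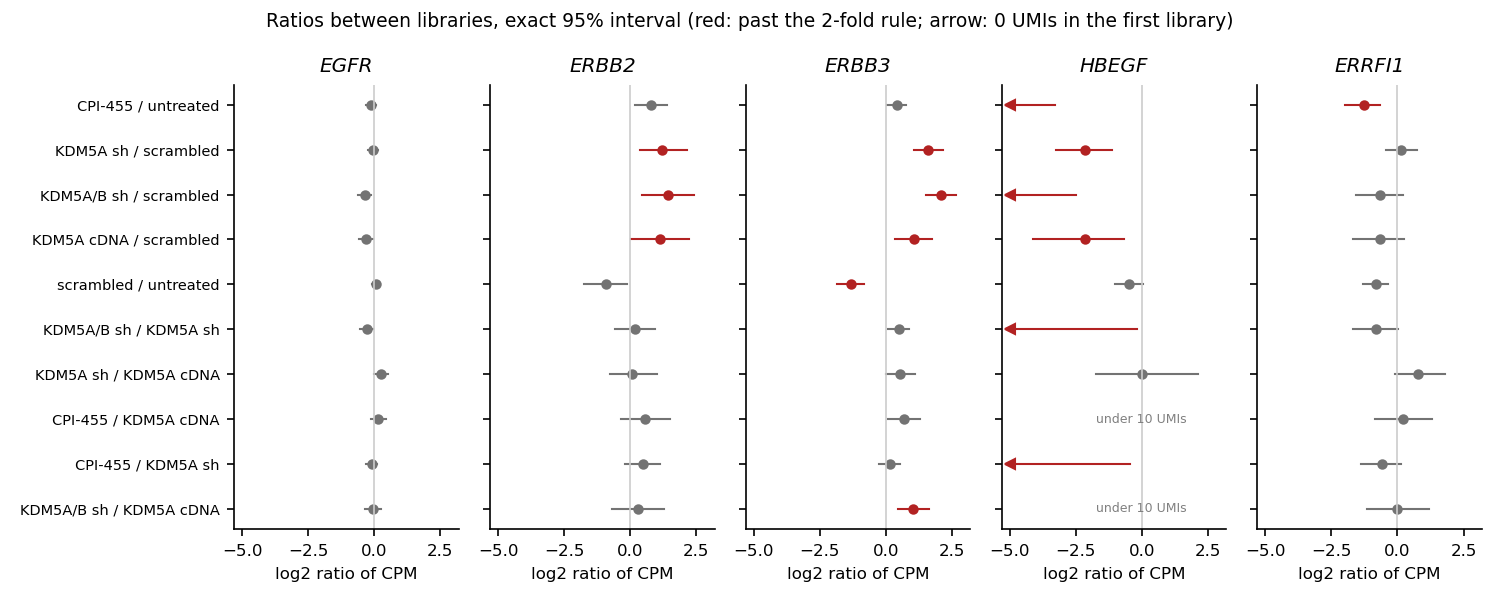
Log2 ratio of the first to the second library of each of 10 pairs, for 5 members, with exact 95% intervals (red where past the 2-fold rule, grey otherwise; an arrow marks 0 UMIs in the first library, drawn at the left edge with the line ending at the upper bound). ERBB2 and ERBB3 are red to the right in the 3 transduced erlotinib libraries over scrambled, HBEGF is red to the left there and in CPI-455 over untreated, and EGFR lies close to 0 in all pairs.

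The spread of the members over single cells was described after thinning each cell to 1000 UMIs, which left out 38, 42, 28 and 26 cells of the erlotinib libraries in the order used above, against 41 scrambled and 344 untreated. EGFR was detected in 22.0% (95% interval 15.9 to 29.1), 26.5% (21.8 to 31.6), 26.6% (19.1 to 35.3) and 21.9% (14.4 to 31.0) of cells with CPI-455, KDM5A shRNA, the library labelled KDM5A and KDM5B shRNA and KDM5A cDNA, against 30.6% (24.6 to 37.1) scrambled and 29.2% (26.1 to 32.4) untreated. These intervals overlap widely. Before thinning, the shares were between 53.5% and 60.7% with erlotinib, against 60.5% scrambled and 48.2% untreated. No other cell type in these libraries serves as a background for such shares. In barcodes under 500 UMIs, which hold shallow cells or free RNA, EGFR stood at between 208 and 403 CPM with erlotinib, against 255 CPM scrambled and 301 CPM untreated, and these values rest on between 9 and 76 UMIs.

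ERBB3 was found in 6.71%, 10.5%, 8.06% and 7.62% of thinned cells of the erlotinib libraries in that order, against 0.901% (2 of 222 cells) scrambled and 7.42% (61 of 822 cells) untreated. At this depth the interval of the scrambled library lay below those of the other 5, which overlapped each other. HBEGF was found in 0 of 164 cells in the CPI-455 library, 1 of 332 with KDM5A shRNA, 0 of 124 in the library labelled KDM5A and KDM5B shRNA, and 1 of 105 in KDM5A cDNA cells, against 7 of 222 scrambled and 28 of 822 untreated cells. A count of 0 allows a share of cells with a UMI at this depth of up to 1.83% with CPI-455 and up to 2.42% in the library labelled KDM5A and KDM5B shRNA, which does not limit the cells expressing the gene. HBEGF was seen in 0.301% (0.00763 to 1.67) of KDM5A shRNA cells, against 3.15% (1.28 to 6.39) scrambled and 3.41% (2.28 to 4.89) untreated, and the first of these intervals overlaps that of the scrambled library. ERRFI1 was found in 1.83%, 4.82%, 1.61% and 1.90% of cells with erlotinib in that order, against 1.80% scrambled and 4.38% untreated. With thinning to 2000 UMIs instead, ERBB3 was found in 5.20% of scrambled cells, against between 12.5% and 24.5% in the other 5 libraries. The scrambled library was thus still lowest, but whether its interval stayed apart at 2000 UMIs is not given here.

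Few cells showed a ligand. A UMI of HBEGF, AREG or EREG was seen in 0, 1, 0 and 1 thinned cells of the erlotinib libraries in the same order, against 7 cells scrambled and 36 untreated. Of the 28 untreated thinned cells with HBEGF, 6 also had an EGFR UMI, and 0 had an EREG UMI. Over all 822 untreated thinned cells, 240 (29.2%) had an EGFR UMI and 7 (0.852%) an EREG UMI. With so few cells, these counts cannot tell whether the genes share cells. Without thinning, the 55 EREG UMIs of the untreated library lay in 29 of 1166 cells, 9 of them with at least 3 UMIs, and the 10 cells with the most EREG held 61.8%. Cells with EREG were deep, with a median of 10310 UMIs against 1493.5 for all untreated cells. The 166 HBEGF UMIs lay in 101 cells, with a median of 5794 UMIs. Untreated cells with ERRFI1, ERBB3 or EGFR also had medians above that of all cells, at 5687, 4478 and 3026.5 UMIs. Greater depth was thus not particular to cells with a ligand.

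**Figure D4:**
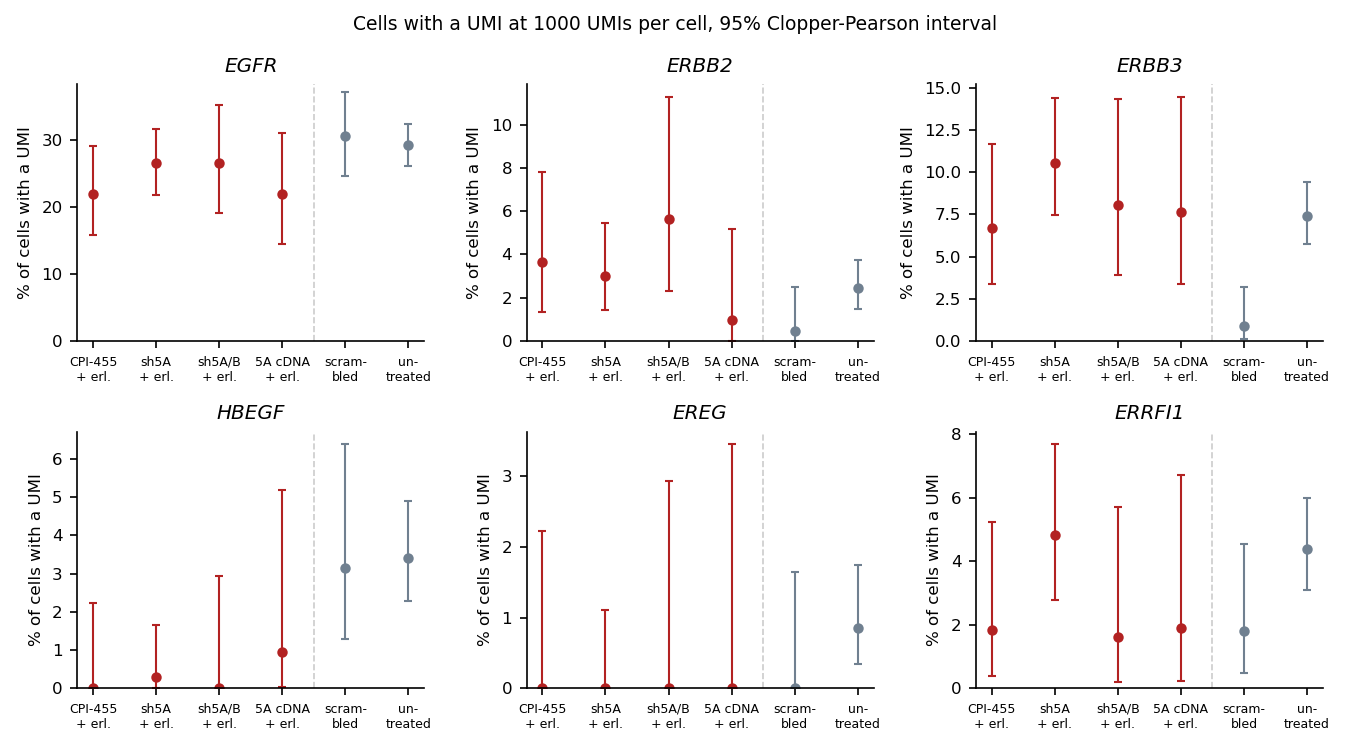
Share of cells with at least 1 UMI of each of 6 members after thinning to 1000 UMIs per cell, in percent, with exact 95% Clopper-Pearson intervals (red with erlotinib, grey without). ERBB3 is between 6.71% and 10.5% with erlotinib, against 0.901% in scrambled and 7.42% in untreated cells, and HBEGF is at or below 0.952% in the erlotinib libraries against 3.15% and 3.41% in the controls.

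Other genes of the pathway were counted in lists, and each count stands beside 10.0% of all tested genes called higher and 13.5% called lower. Of other ligands and ERBB4, only NRG4, an ERBB4 ligand, was tested, and it did not pass (log2 fold 0.10, adjusted p = 0.959). EGF had 5, 4, 2 and 3 UMIs in the erlotinib libraries, against 3 scrambled and 38 untreated. NRG1 had 3, 5, 0 and 3 UMIs with erlotinib, against 9 scrambled and 19 untreated. EPGN had 0, 4, 0 and 0 UMIs with erlotinib, against 9 scrambled and 9 untreated. ERBB4 had at most 2 UMIs in a library. Of 4 tested genes of ligand shedding, 2 rose and 0 fell (all genes: 10.0% and 13.5%). ADAM10, a shedding protease, rose by 0.90 on the log2 scale (SE 0.22, adjusted p = 0.0171) and RHBDF1, which encodes the inactive rhomboid iRhom1, by 1.12 (SE 0.32, adjusted p = 0.0306). ADAM17, the main protease for HBEGF, had a log2 fold of -0.17 (adjusted p = 0.584) and TIMP3, a protease inhibitor, -0.69 (adjusted p = 0.131).

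Of 24 adaptors and relay genes, 3 rose and 1 fell, against 10.0% higher and 13.5% lower over all genes, so these counts are near the background, and the list's median log2 fold was -0.10, beside 0.01 for all genes. STAT3, a transcription factor downstream of receptors, rose by 1.23 (SE 0.23), SOS2, a RAS exchange factor, by 1.53 (SE 0.29) and GAB2, a docking adaptor, by 2.43 (SE 0.56). AKT1, a kinase downstream of PI3 kinase, fell by 1.14 on the log2 scale (SE 0.33). Adjusted p for these 4 ran between 0.00465 and 0.0310. GAB2, at 1.55 CPM scrambled and 3.79 CPM untreated, was under the low-count limit of 9.22 CPM in both. It entered the test through the erlotinib libraries and had to differ, so its call is a description only. The abundant relay genes PTPN11 (-0.45) and GRB2 (0.03) did not pass. Of 16 genes of receptor breakdown and recycling, 2 rose and 1 fell, also near the background of 10.0% and 13.5%, with a median of 0.16. CBLB, a ubiquitin ligase for receptors, rose by 2.40 (SE 0.35) and EPS15, an endocytic adaptor, by 0.85 (SE 0.24), while SH3KBP1, a partner of CBL proteins, fell by 1.06 (SE 0.27). CBLB, at 5.41 CPM scrambled and 8.85 CPM untreated, also entered the test through the erlotinib libraries, so its call has the same limit as that of GAB2. RAB7A (0.11), STUB1 (-0.24) and CDC37 (-0.38) were the other abundant members and did not pass.

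Genes downstream of the receptors were counted next. Of 14 tested MAPK output genes 10 fell and 0 rose, against 13.5% lower and 10.0% higher over all genes. Of these 10, 8 were under the low-count limit of 9.22 CPM in at least 3 of the 4 erlotinib libraries, so they entered the test through the drug-free libraries and had to differ, and the list count is a description only. The other two, PHLDA1 and CCND1, were not under it. DUSP4, a MAPK phosphatase and among the 8, had a log2 fold of -4.31 (SE 0.33), PHLDA1 -3.22 (SE 0.36) and CCND1, which encodes cyclin D1, -2.27 (SE 0.46). MYC, a growth regulator, had -0.01 (SE 0.25) and did not pass. The list members too low for the test were the feedback inhibitors SPRY2, with 1, 0, 1 and 0 UMIs in the erlotinib libraries, against 8 scrambled and 37 untreated, and SPRY4, with 1, 0, 0 and 0 UMIs, against 3 scrambled and 40 untreated. Of 12 FOXO and quiescence genes 7 rose and 0 fell, against 10.0% and 13.5% over all genes, with a median of 1.08. Among the 7, PIK3IP1 (2.32 CPM scrambled, 5.31 CPM untreated) and YPEL2 (0.773 CPM scrambled, 6.82 CPM untreated) were under 9.22 CPM in both drug-free libraries. They entered the test through the erlotinib libraries and had to differ, so this list count too is a description only. CITED2, a transcriptional coregulator, rose by 2.98 (SE 0.28) and PIK3IP1, an inhibitor of PI3 kinase, by 3.11 (SE 0.52). YPEL2, YPEL3 and YPEL5, of a family linked to growth arrest, rose by 2.56, 2.83 and 2.33, BTG1, an antiproliferative gene, by 1.06 and the cell cycle inhibitor CDKN1B by 1.10. For CDKN1B the groups overlapped, with 66.1 CPM in the KDM5A cDNA library against 68.2 CPM untreated. FOXO3 at 0.44 did not pass (adjusted p = 0.199). Of 9 tested other receptor tyrosine kinases 1 rose, IGF1R, by 1.35 (SE 0.26, adjusted p = 0.00516). MET at 0.56, AXL at -0.58 and EPHB2 at 0.34 did not pass. Of 7 genes often used as references, 2 rose (ACTB by 1.14 and EEF1A1 by 1.41) and 1 fell (TUBA1B, by 2.52 on the log2 scale), while GAPDH at -0.63 and RPLP0 at 0.20 did not pass.

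**Figure D5:**
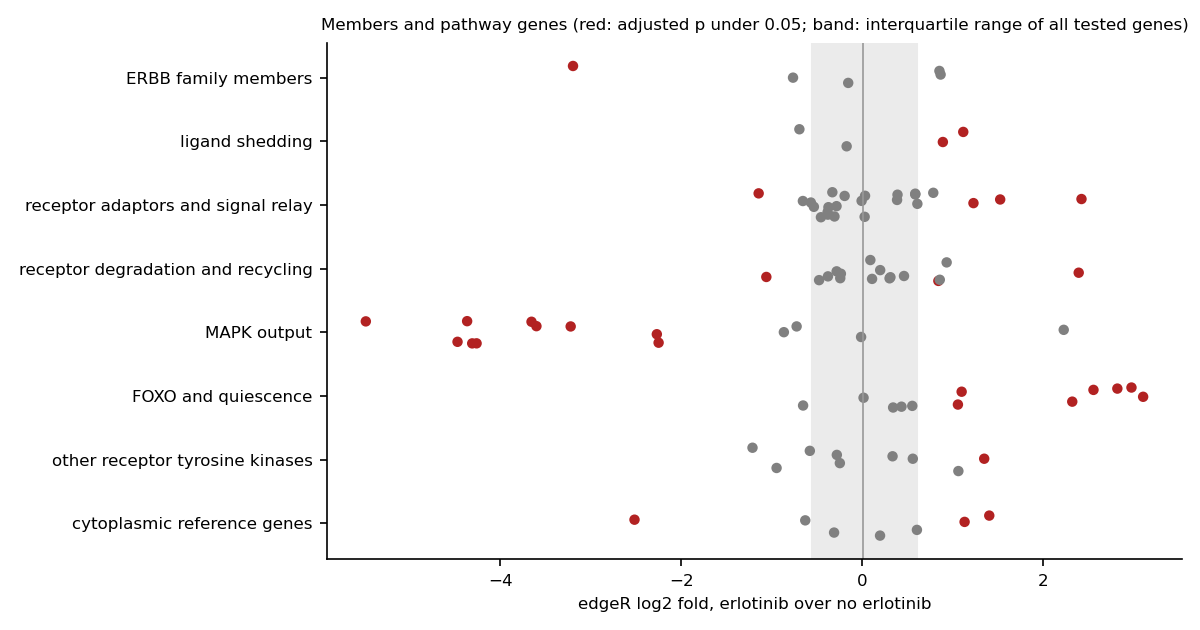
EdgeR log2 fold of erlotinib over no erlotinib for the 5 tested members and for the tested genes of 7 lists (each point a gene, red where the adjusted p was under 0.05; the grey band spans the interquartile range of all 10445 tested genes). The receptors lie near the band and HBEGF lies at -3.20. Of 14 MAPK output genes 10 are red and left, and 8 of them, like HBEGF, entered the test through the drug-free libraries. Of 12 FOXO and quiescence genes 7 are red and right. PIK3IP1 and YPEL2 among these, and GAB2 and CBLB in other lists, entered the test through the erlotinib libraries.

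Genes most like a member were ranked by Pearson's r of log2(CPM + 5) over the 6 libraries, among 1910 genes at 50 CPM or more in some library, for members whose SD on that scale was at least 0.5. This is a description over 6 libraries. ERBB3 was most like SGPL1 (r = 0.983), CIR1, ADAM9, PRSS8 and SEZ6L2. PRSS8, an epithelial serine protease, stood at between 57.6 and 152 CPM with erlotinib, against 33.2 scrambled and 69.8 untreated. HBEGF was most like TTLL12 (r = 0.990), LMNB2, EIF3J, CYCS and LPCAT2. CYCS, cytochrome c, was at between 103 and 176 CPM with erlotinib, against 462 scrambled and 583 untreated. EREG was most like POLR2L (r = 0.968), ATP5I, CBX3P9, METTL12 and LPIN1, all highest in untreated cells. ERRFI1 was most like ANKRD1 (r = 0.990), DDAH1, VEGFA, UPF3B and C6orf1. ANKRD1, a target of the YAP coactivator, had 2.29, 23.8, 0 and 0 CPM in the erlotinib libraries in the order used above, against 12.4 scrambled and 61.9 untreated.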

How the data were processed

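The deposited tables hold counts, as the authors made them: raw, whole UMI numbers for each symbol and barcode, as the values showed. Per the submitters' processing notes, STAR and FastQC were used with GRCh37.p13, or hg19; versions, counting tool and barcode choice are not given in the sources used here. Each table lists only genes with at least 1 UMI, so a symbol missing from a table but present in another was read as 0. UMIs were summed over kept cells per library and scaled to CPM. Summed counts were tested with edgeR 4.0.16 in R 4.3.3 (TMM scaling, low counts removed by filterByExpr on erlotinib, a robust quasi-likelihood fit, common coefficient of biological variation 0.262); DESeq2 1.42.0 and limma 3.58.1 were alternatives. Standard errors came from the fold and its F statistic. Ratios between libraries have exact conditional 95% intervals (SciPy 1.17.1). Doublets were not called, because 2 cells of 1 line cannot be recognised. The pathway lists name up to 4 members with the most UMIs and those that passed, where at most 8 did; a gene that this rule selects is not reported here. The steps were tested on simulated counts. Members and lists were chosen with earlier results of these data known. Promoters come from RefSeq, GRCh38.p14, and no coordinates were taken between builds. Counts of 0 allow between 0.758 and 5.08 CPM (3 counts). UMIs are not independent of cell capture, so intervals and floors cover counting error only.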

Additional observations from a re-analysis of the deposited data

Results flagged for a closer look

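Among the 4 erlotinib libraries, the KDM5A cDNA library stood apart for EREG, at 1.69 CPM against 0 UMIs in each of the other three. The difference is a single UMI, whose 95% interval of 0.0429 to 9.44 CPM covers counting error only. With 0 UMIs in the others, any single UMI would have stood out in this way. Of 7 members looked at in this way, 1 was picked out, and chance picks out about 1 group in 20.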

How the results depend on the processing

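Thinning to 1000 UMIs per cell, which leaves fewer UMIs and fewer genes to test, gave 475 genes higher and 513 lower in edgeR, and the 4 transduced libraries alone gave 479 and 856. Leaving out 1 library at a time gave between 500 and 1176 genes higher and between 860 and 1341 lower. Members called lower numbered 0 with DESeq2, with thinning (where HBEGF was no longer tested) and with the transduced libraries alone, and 2 without a filter on low counts, where EREG joined HBEGF. Leaving out 1 library gave between 0 and 2 members lower and between 0 and 1 higher, and the transduced libraries alone gave 1 higher, ERBB3. With thinning, 1 member was past the fold in CPI-455 against untreated, in each transduced erlotinib library against scrambled and in scrambled against untreated. Thinning gave 0 in the comparisons of the library labelled KDM5A and KDM5B shRNA with KDM5A shRNA and with KDM5A cDNA, and in CPI-455 against KDM5A shRNA. At most 10% MT- UMIs, and leaving out barcodes ending in N, each gave 0 where HBEGF had rested on 0 UMIs against 11; all barcodes gave 0 when the library labelled KDM5A and KDM5B shRNA was set against KDM5A shRNA or KDM5A cDNA. Without barcodes ending in N, 1 member was past the fold in KDM5A cDNA against scrambled, 1 in KDM5A shRNA against KDM5A cDNA and 0 in the library labelled KDM5A and KDM5B shRNA against KDM5A cDNA. With thinning, added after the data were seen, EGFR's share of receptor UMIs was 70.2% with KDM5A shRNA against 96.6% scrambled, and ligand UMIs per 1000 receptor UMIs were 6.21 with KDM5A shRNA and 97.9 untreated (112 without barcodes ending in N). The cause of these shifts was not tested. Across these settings, no fold of a tested member reversed, and 81 of 87 kept their side of the threshold. The 87 include the members not called in the main fit. The 3 folds that lost a call were all of HBEGF, the only member called there. With thinning HBEGF was not tested, so that setting is not among the 87 for it. No paired analysis was possible because each condition had 1 library. Of 72 shares of cells compared between settings, 48 moved, so the shares hold for the stated depth only. Depth limits AREG, EREG and LRIG1 most. The EREG call without a filter on low counts rests on the untreated library, which held 55 of the 57 EREG UMIs without erlotinib. The EREG levels of the groups overlapped.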
